A study of Mus musculus with 6 samples.

Results

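Kinesins are motor proteins that use ATP to move along microtubules or to take microtubule ends apart. The members described here were chosen by gene symbol, as every row of the count table named Kif followed by a number, or Kifc followed by a number, and they came to 40 of the 27179 genes in the table. They were divided into 12 mitotic kinesins (Kif2c, Kif4, Kif11, Kif14, Kif15, Kif18a, Kif18b, Kif20a, Kif20b, Kif22, Kif23 and Kifc1) and 28 others, the latter grouped here by role into 17 cargo kinesins, 7 ciliary, axonemal or Hedgehog-pathway kinesins, and 4 depolymerising or non-motile kinesins. RNA was measured in C2C12, an established mouse myoblast line. The 3 myoblast libraries were made from dividing cells grown sub-confluent in high-glucose DMEM with 10% FBS and 4 mM glutamine. For the 3 myotube libraries the same line was left at full confluence for 3 days and then given high-glucose DMEM with 2% horse serum, 4 mM glutamine and insulin-transferrin-selenium-ethanolamine for 5 days. Serum, supplement, density and differentiation changed together between the groups and cannot be told apart. Because separate cultures are not named in the labels, the p-values speak to the spread between these libraries alone, which may be technical.

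In dividing cells a set of kinesins builds the spindle, moves and aligns chromosomes, and completes cytokinesis, and their transcripts are known to peak late in the cell cycle. The remaining kinesins mostly work between divisions. Kinesin-1 (Kif5), kinesin-2 (Kif3) and kinesin-3 (Kif1, Kif13, Kif16) carry organelles, vesicles and RNA, and kinesin-1 is known in muscle fibres for moving and spacing nuclei and mitochondria. Myotubes have left the cell cycle and contain many nuclei, and their microtubules are reorganised from a centrosomal array into one that starts at the nuclear envelope.

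The libraries held 10076945 to 11723881 counts in myoblasts and 7370169 to 8339589 in myotubes, and kinesins took 0.238 to 0.296% of each. All 8 markers of differentiated myotubes were higher in the myotube libraries by more than 2-fold (median log2 change 7.82), so the group labels matched the markers. Markers of the myogenic lineage, Myod1, Myf5, Des and Cdh15, were present in both groups. All 4 proliferation markers were lower by more than 2-fold, and the summed level of Mki67, Top2a, Pcna and Ccnb1 fell from 1358 to 1387 CPM (counts scaled to the library total, by TMM factors) to 108.4 to 119.0 CPM. Of 4 markers of reserve or satellite cells, undifferentiated cells that remain in such cultures, 3 (Cd34, Heyl and Spry1) were higher in the myotube libraries. Pax7 was not called, at 59.2 ± 1.64 CPM in myoblasts and 63.8 ± 6.08 CPM in myotubes (SD, n = 3). The sum of the 4 was 131.6 to 140.6 CPM against 291.3 to 319.4 CPM. Of 5 markers of leukocytes, endothelium and epithelium, only Cdh1 was tested, and their sum was 0.565 to 0.813 CPM against 3.52 to 4.55 CPM. In these bulk samples, fewer cells of a type and less RNA per cell cannot be told apart.

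Of the 40 kinesins, 34 had enough counts to be tested, namely all 12 mitotic kinesins and 22 of the 28 others. The mitotic kinesins were lower in myotubes in 12 of 12 cases, and each was lower by more than 2-fold. Among all 12800 genes tested, 39.2% were lower and 9.2% were lower by more than 2-fold. The other kinesins were mostly higher, with 14 of 22 higher, 6 lower and 2 (Kif3b and Kif3c) not called. The background for a higher call was 40.2%. Of the 22, 5 were higher by more than 2-fold and 2 were lower by more than 2-fold, against a background of 12.4% for the former. Among those counted, Kif19a and Kif9 met the count filter only because of their myotube libraries, and Kif5a only because of its myoblast libraries. The filter thus favoured the direction of their calls, which add no support to these counts. The median log2 change was −3.76 for the mitotic kinesins, 0.53 for the other tested kinesins and 0.02 for all genes tested. In 32 of the 34 tested kinesins the 3 libraries of one group lay wholly above those of the other, which was also so for 80.5% of all genes tested, so this separation was common in the table.

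**Figure D1:**
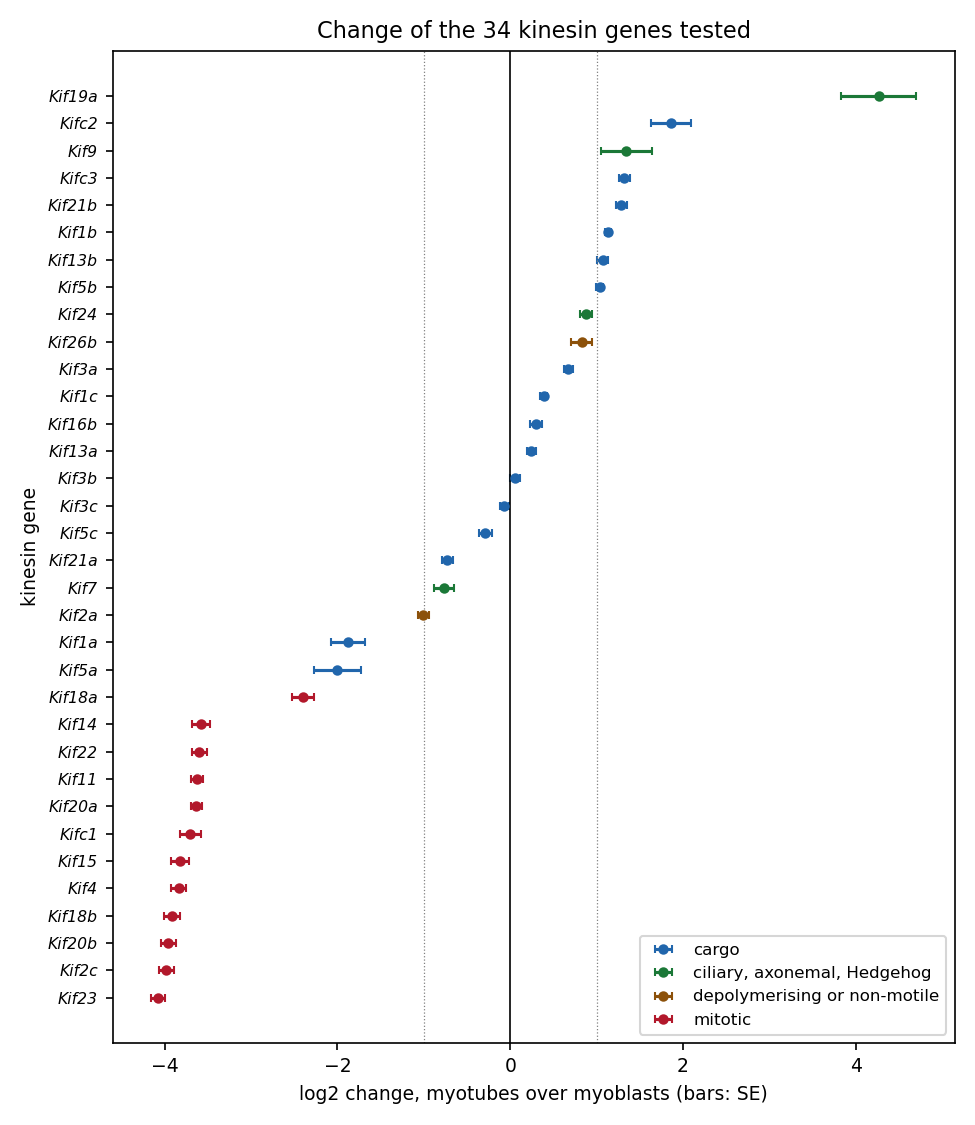
The points are log2 changes, myotubes over myoblasts, for the 34 tested kinesins, coloured by role, with bars of 1 standard error and dotted lines at a 2-fold change. The 12 mitotic kinesins lie between −4.08 and −2.40, while 14 of the 22 others lie above 0 and pass the test.

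The mitotic kinesins include motors of each step of division. Kif11 (kinesin-5) slides spindle poles apart, Kif15 helps it, and Kifc1 is a minus-end-directed motor that focuses poles. Kif22 and Kif4 bind chromosome arms, Kif18a and Kif18b limit microtubule length, and Kif2c takes microtubules apart at centromeres to correct faulty attachments. Kif23, the motor of centralspindlin, Kif20a, Kif20b and Kif14 act at the central spindle and the midbody.

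Kif23 (GRCm38, chromosome 9, 61917277 to 61946810, minus strand) showed the steepest fall of all kinesins. It measured 142, 140.2 and 148 CPM in the myoblast libraries and 8.99, 7.17 and 9.22 CPM in the myotube libraries. Every myotube library lay far below every myoblast library, at a mean of 5.89% of the myoblast level (144 ± 4.32 CPM, SD, n = 3, to 8.46 ± 1.12 CPM, SD, n = 3). Its log2 change was −4.08 (SE 0.08) with an adjusted p of 2.26e-24 in the quasi-likelihood test of edgeR, adjusted by Benjamini-Hochberg over all genes tested.

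Kif20a, which recruits the chromosomal passenger complex to the central spindle, had the highest level of all kinesins in myoblasts when CPM were divided by exon length. Its levels were 229.7, 234 and 233 CPM in myoblasts and 18.0, 16.9 and 21.1 CPM in myotubes, a mean of 8.03% of the myoblast level. The groups were far apart, with a log2 change of −3.63 (SE 0.06) and an adjusted p of 2.11e-25 in edgeR. Of its exon bases, 29.3% overlap the opposite-strand gene Cdc23, which measured 101 ± 5.18 CPM before and 79.3 ± 3.43 CPM after differentiation, and whether the counting took strand into account is not stated.

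Kif11 (chromosome 19, 37376382 to 37421863, plus strand) went from 167, 159 and 162 CPM to 13.4, 14.9 and 11.2 CPM. The residue was 8.11% of the myoblast level, and the log2 change was −3.63 (SE 0.07, adjusted p 4.7e-24). Kif2c went from 103, 105 and 100.2 CPM to 6.28, 6.63 and 6.57 CPM, a residue of 6.32%. Both motors had myotube levels that lay within a narrow band and never approached a myoblast library.

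Across 11 of the 12 mitotic kinesins the residual level ranged from 5.89 to 8.28% of the myoblast mean, with log2 changes of −4.08 to −3.58. Kif20b kept 6.45%, Kif18b 6.62% and Kif4 6.99% of their myoblast means. Kif15 kept 7.03%, Kifc1 7.71%, Kif22 8.25% and Kif14 8.28%. The proliferation markers kept 6.12 to 24.5% of their myoblast means, the highest being Pcna, a replication clamp. Pcna and Ccnb1 share 31.8 and 42.1% of their 50-base windows with other genes. Their part in the kinesin result was not tested.

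Kif18a was the exception among the 12. It measured 28.3, 25.6 and 25.1 CPM in myoblasts and 6.14, 4.20 and 4.67 CPM in myotubes. Its groups were apart, but the residue was 19.0% of the myoblast level, and the log2 change of −2.40 (SE 0.13, adjusted p 8.41e-15) was the smallest of the set. Its share of the summed CPM of the 12 was 2.35, 2.14 and 2.07% in myoblasts and 6.73, 4.61 and 5.20% in myotubes, so every myotube library gave it a larger share than any myoblast library. The difference between its change and those of the other mitotic kinesins was not tested.

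**Figure D2:**
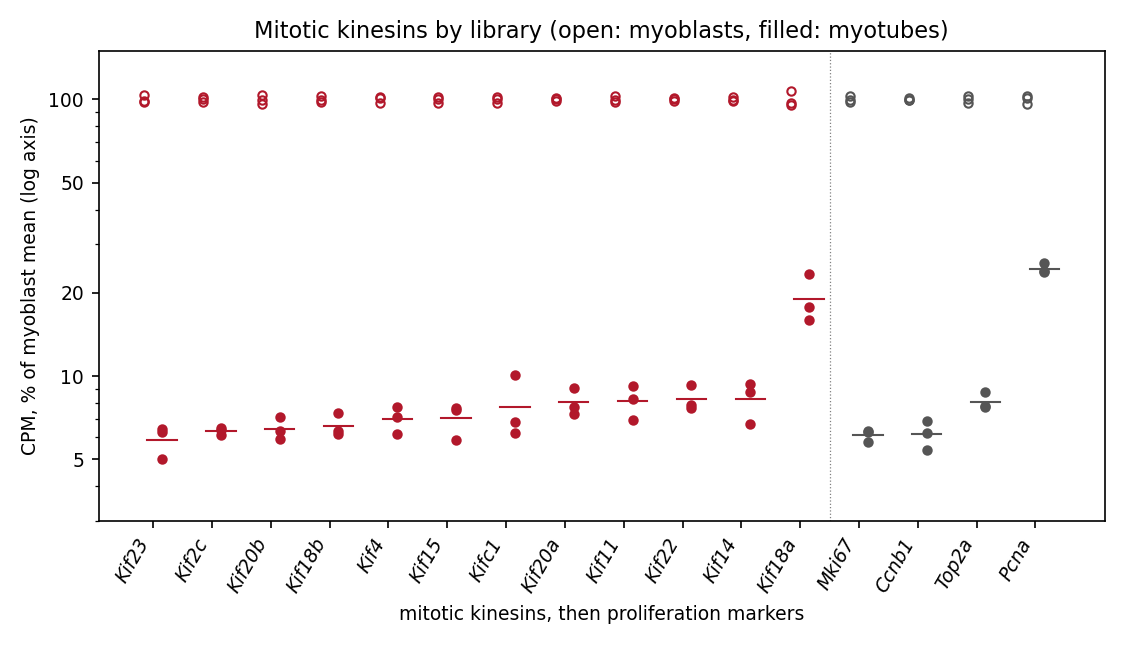
The points are CPM of each library as a percentage of the gene's myoblast mean, on a log axis, for the 12 mitotic kinesins and, right of the dotted line, the 4 proliferation markers (open, myoblasts; filled, myotubes; lines, myotube means). The means of 11 kinesins lie between 5.89 and 8.28%, and that of Kif18a lies at 19.0%.

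Kifc1 shares 45.8% of its 50-base transcript windows with Kifc5b, a near-identical gene that the symbol rule does not take in, so the division of reads between the pair is uncertain. Kifc1 was 48.1 ± 1.3 CPM in myoblasts and 3.7 ± 1.01 CPM in myotubes (SD, n = 3), and Kifc5b was 27.1 ± 2.22 and 3.25 ± 0.463 CPM. Their sum kept 9.26% of the myoblast level. Kif4 overlaps the opposite-strand gene Pdzd11 over 15.1% of its exons, and Pdzd11 was higher in myotubes (log2 change 0.30).

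The promoters of these genes were read because the members moved together. Cell-cycle promoters are known for the CHR element (TTTGAA or TTCGAA), which is bound by the DREAM and MuvB complexes near the start site, for CCAAT boxes bound by NF-Y upstream of it, and for E2F sites. RefSeq windows of the GRCm38.p6 build, of 300 bases from 250 before to 50 after the start, were given for 32 of the 40 kinesins, among them 11 of the 12 mitotic ones (all but Kif20a). The E2F-like words searched were TTTCCCGC and TTTGGCGC, with TTTCGCGC and TTTGCCGC as further forms. In the windows below, capitals mark a CCAAT box, a CHR-like word or an E2F-like word on either strand, so that ATTGG is the box read on the other strand, and GCGCCAAA is likewise the E2F-like TTTGGCGC. Kif23 (chr9:61946750-61947049, minus strand) and Kif11 (chr19:37376132-37376431, plus strand) are shown as mitotic kinesins that hold a CCAAT box upstream of a CHR-like word, Kif18a (chr2:109280488-109280787, plus strand) as the mitotic kinesin with the smallest fall, and Kif24 (chr4:41464799-41465098, minus strand) as a kinesin that rose and that holds words of the same kinds.
Kif23: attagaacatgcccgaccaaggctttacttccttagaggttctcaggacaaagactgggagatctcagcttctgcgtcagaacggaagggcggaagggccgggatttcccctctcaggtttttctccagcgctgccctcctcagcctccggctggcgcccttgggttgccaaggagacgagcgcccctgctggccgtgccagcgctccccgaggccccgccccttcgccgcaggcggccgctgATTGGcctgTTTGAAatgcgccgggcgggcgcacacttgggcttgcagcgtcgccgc
Kif11: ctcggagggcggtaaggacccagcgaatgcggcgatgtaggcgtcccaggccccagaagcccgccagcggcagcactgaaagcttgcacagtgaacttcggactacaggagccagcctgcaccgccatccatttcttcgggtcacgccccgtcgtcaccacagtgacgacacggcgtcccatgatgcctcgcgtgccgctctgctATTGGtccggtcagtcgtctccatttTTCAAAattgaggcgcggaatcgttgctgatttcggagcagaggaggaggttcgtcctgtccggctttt
Kif18a: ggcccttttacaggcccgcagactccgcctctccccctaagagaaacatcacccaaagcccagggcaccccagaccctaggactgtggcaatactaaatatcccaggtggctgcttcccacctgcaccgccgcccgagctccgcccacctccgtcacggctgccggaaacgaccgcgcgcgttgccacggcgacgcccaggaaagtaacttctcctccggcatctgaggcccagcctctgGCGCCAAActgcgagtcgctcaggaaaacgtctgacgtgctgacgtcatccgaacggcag
Kif24: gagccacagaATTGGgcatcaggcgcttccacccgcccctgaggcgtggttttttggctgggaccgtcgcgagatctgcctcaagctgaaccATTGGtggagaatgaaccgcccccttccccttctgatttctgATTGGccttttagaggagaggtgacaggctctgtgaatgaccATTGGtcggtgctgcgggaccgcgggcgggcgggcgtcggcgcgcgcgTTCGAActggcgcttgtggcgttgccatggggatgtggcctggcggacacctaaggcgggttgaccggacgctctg

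In Kif23 the CCAAT word starts 7 bases before the start site and TTTGAA 3 bases after it. In Kif11 CCAAT starts 45 bases before the start and TTTGAA 19 bases before it. TTTGAA or TTCGAA was found in 10 of the 11 mitotic windows (90.9%), in 16% of the 25 windows of the other kinesins and in 19.2% of all 32851 windows. The mitotic windows that hold it are those of Kif11, Kif14, Kif15, Kif18b, Kif20b, Kif22, Kif23, Kif2c, Kif4 and Kifc1, and the one without it is that of Kif18a. Those of Kif14 (chr1:136467598-136467897) and Kif2c (chr4:117178723-117179022) lie wholly inside the annotated gene, at an inner start. The gene spans are 136466301 to 136555938 and 117159633 to 117182624. Windows of Kif3a, Kif21a, Kif26a and Kif9 that hold neither TTTGAA nor TTCGAA also lie wholly inside the annotated gene. For Kif9 this holds only for the inner of its windows. Among the 12649 windows of genes tested the share with TTTGAA or TTCGAA was 13.7%. Among windows of all genes that were lower by more than 2-fold it was 21%. CCAAT was found in 7 of 11 mitotic windows (63.6%), against 36% of the other kinesin windows and 37.4% of all windows. It was in 37.6% of the windows of genes tested and in 43.6% of those of genes lower by more than 2-fold.

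Within 30 bases of the start, a span chosen after the positions had been seen, TTTGAA or TTCGAA lay in 8 of 11 mitotic windows (72.7%), in 8% of the other kinesin windows, in 3.4% of all windows and in 7.78% of the windows of genes lower by more than 2-fold. E2F-like words lay in the windows of Kif15 and Kif18a only among the mitotic kinesins (18.2%), in none of the other kinesin windows, in 2.26% of all windows and in 7.95% of those of genes lower by more than 2-fold. CAGCTG, a form of the E-box that myogenic factors bind, lay in none of the mitotic windows, in 20% of the other kinesin windows and in 16.3% of all windows. In windows of genes tested, the share with TTTGAA or TTCGAA within 30 bases of the start was 2.35%. For E2F-like words and CAGCTG it was 3.89 and 15.7%. The other kinesins with a CHR-like word were Kif24 (26 bases before the start) and Kif26b (9 before), both higher in myotubes, Kif1a, which was lower, and Kif27, which was not tested. For Kif1a and Kif27 the window with the word lies inside the annotated gene, and the outer window of Kif1a holds no such word. These matches are descriptions of letters and not of binding, and the absence of a word says only that these letters are not in that window.

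**Figure D3:**
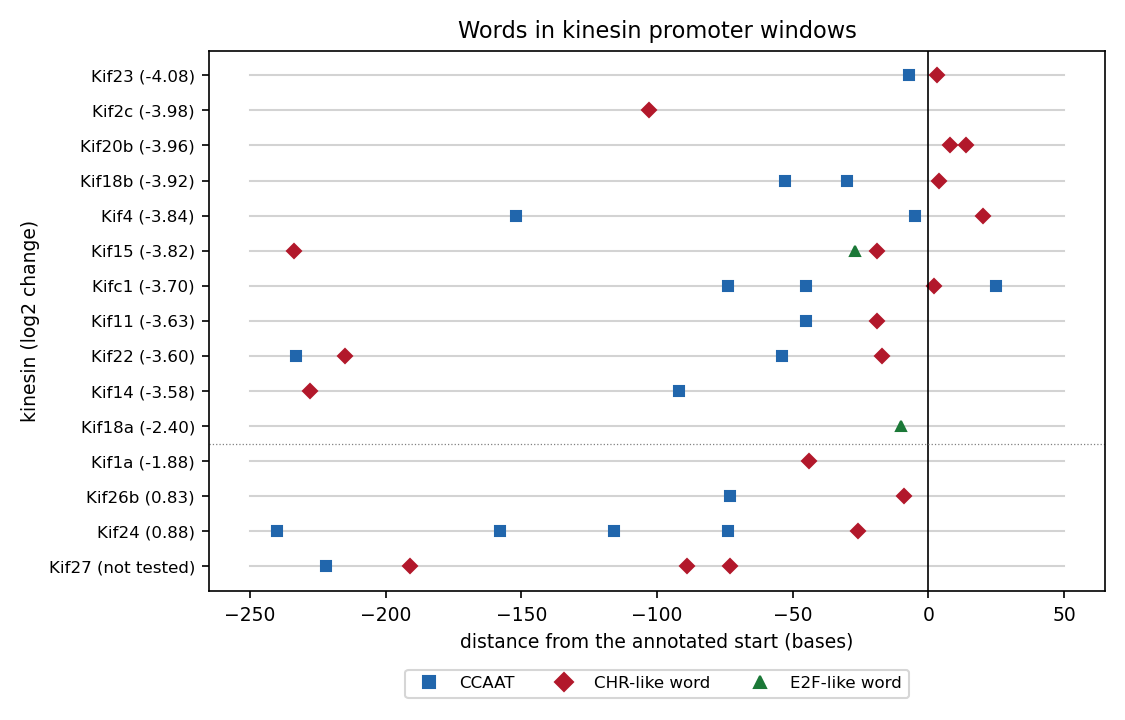
Marks show the distance of each word from the annotated start, in bases, in the promoter windows (grey lines) of the 11 mitotic kinesins and, under the dotted line, of the 4 other kinesins with a CHR-like word (TTTGAA or TTCGAA), 1 window a gene, with the log2 change beside each name. In 8 of the 11 mitotic windows a CHR-like word lies within 30 bases of the start, and Kif18a has none.

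The partners of mitotic kinesins fell with them. Of 23 partners, all of which were tested, 21 were lower (18 by more than 2-fold), 1 was higher and 1 was not called, and the median log2 change was −3.25. Over all genes tested, 39.2% were lower and 9.2% lower by more than 2-fold. Cenpe, the kinesin-7 of kinetochores that the symbol rule leaves out, went from 199 ± 9.06 to 13.3 ± 1.29 CPM (log2 change −3.90, SE 0.07). Birc5, a subunit of the chromosomal passenger complex, changed by −3.89 on the log2 scale. The one partner that rose was Mapre3, a microtubule plus-end protein known to increase in muscle differentiation, from 40.8 ± 2.24 to 94.6 ± 1.14 CPM (log2 change 1.21). Psrc1, a spindle protein named after its value was seen, was 18.4 ± 1.28 and 18.6 ± 2.93 CPM.

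Among the cargo kinesins 10 of 16 tested were higher in myotubes, 4 were lower and 2 were not called, with a median log2 change of 0.34, against backgrounds of 40.2% higher and 39.2% lower. In kinesin-1, the heavy chain Kif5b was the member that rose, while Kif5a and Kif5c fell. Kif5b, the form found in most tissues, measured 320.0, 316 and 330.0 CPM in myoblasts and 646, 671 and 664 CPM in myotubes. The lowest myotube library was well above the highest myoblast library, and the mean rose 2.05-fold, with 322 ± 7.11 CPM before and 660.2 ± 12.9 CPM after (SD, n = 3), and the log2 change was 1.04 (SE 0.04) with an adjusted p of 1.43e-18. A change beyond 2-fold was not called for it (adjusted p 0.252 in the glmTreat test of edgeR).

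Kif5a, known mainly from neurons, was low and fell from 4.13, 4.06 and 4.33 CPM to 1.28, 0.947 and 0.884 CPM. The groups did not overlap, and its log2 change of −2.00 (SE 0.27) passed the test against 2-fold (adjusted p 0.00101). Kif5a met the count filter only because of its myoblast libraries. Kif5c, also known from neurons, fell from 45.1, 39.1 and 43.0 CPM to 37.1, 34.0 and 33.1 CPM, which is −0.29 on the log2 scale (SE 0.07, adjusted p 0.00114). Of the neuron markers, Snap25 had 0 counts in all libraries, and Rbfox3 and Syt1 had 1 and 3 counts in the myoblast group and 0 in the myotube group. Tubb3 was lower (241 ± 9.51 to 35.2 ± 5.05 CPM) and Map2 was higher (25.7 ± 1.42 to 53.8 ± 1.08 CPM). The summed level of the 5 markers, nearly all from Tubb3 and Map2, was 257.5 to 276.9 CPM in myoblasts and 85.4 to 93.6 CPM in myotubes.

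Light chains and adaptors link kinesin-1 to its cargo. Klc1 rose from 229.3 ± 7.6 to 398 ± 16.3 CPM (log2 change 0.80, SE 0.04), and Klc4 rose by 0.81 and Klc2 by 0.43 on the log2 scale. Klc3, at 4.29 ± 0.0982 CPM, was lower in myotubes (log2 change −0.58, adjusted p 0.0145), and 28.1% of its exons overlap another gene. Trak1, an adaptor to mitochondria, rose (log2 change 0.49), whereas Trak2 was 123 ± 2.29 and 115 ± 2.38 CPM and was not called. Map7, a microtubule protein that recruits kinesin-1 in muscle, had 10 counts in the myoblast libraries together and 0 in the myotube libraries and was not tested. Of the whole list of 24 partners of transport kinesins, 21 were tested, 11 were higher, 6 lower and 4 not called, with a median log2 change of 0.27. This lies not far from the 40.2% of all genes that were higher and the 39.2% that were lower, so the counts are no result about the list.

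The largest rises in that list were in 2 adaptors known mainly from neurons. Jakmip1 had 0 counts in all 3 myoblast libraries and 6.69 ± 0.401 CPM in myotubes, at least 75.9-fold higher when set against 3 counts over the myoblast group. Fez1 went from 0.357 ± 0.195 to 23.3 ± 4.37 CPM (log2 change 6.002, SE 0.25). Jakmip1 and Fez1 met the count filter only because of their myotube libraries. The largest fall was in Madd, a protein that links Kif1 motors to Rab3, from 49.3 ± 0.987 to 27.3 ± 3.45 CPM (log2 change −0.85).

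Kinesin-2 is a heterotrimer of Kif3a, either Kif3b or Kif3c, and the accessory protein Kifap3. Kif3a rose from 76.8, 77.2 and 80.5 CPM to 116, 127 and 130.4 CPM (log2 change 0.67, SE 0.05, adjusted p 1.05e-11), with no overlap between the groups. Kif3b measured 75.3, 74.4 and 78.9 CPM in myoblasts and 78.3, 78.2 and 80.7 CPM in myotubes. Kif3c measured 70.2, 70.9 and 77.7 CPM in myoblasts and 70.8, 69.7 and 68.3 CPM in myotubes. The groups overlapped for both of these partners, and neither was called (adjusted p 0.342 and 0.289). With counts scaled by library totals alone, Kif3c was called lower (log2 change −0.21, adjusted p 0.00158) and Kif3b turned to −0.091 without a call. Kifap3 rose from 118 ± 6.68 to 149 ± 6.55 CPM (log2 change 0.33). Per kilobase of exon, the ratio of Kif3a to the sum of Kif3b and Kif3c went from 0.933 ± 0.0151 to 1.48 ± 0.0863 (SD, n = 3), although 40.7% of the exon bases of Kif3c overlap genes on the opposite strand. Kif17, the kinesin-2 of neuronal dendrites, had 1, 1 and 0 counts in myoblasts and 4, 5 and 6 in myotubes, too few for the test. Their ratio after scaling was 11.4, with an exact 95% counting interval of 2.66 to 103.

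In kinesin-3, Kif1b rose and Kif1a fell. Kif1b (chromosome 4, 149176319 to 149307773, minus strand), a carrier of mitochondria and vesicle precursors, measured 249, 253 and 261 CPM in myoblasts and 543, 558 and 573 CPM in myotubes. Its groups were far apart, and its log2 change of 1.13 (SE 0.04, adjusted p 4.02e-19) passed the test against 2-fold (adjusted p 0.00108). Kif1a, a carrier of synaptic vesicle precursors, went from 11.0, 10.7 and 7.91 CPM to 2.00, 3.38 and 2.65 CPM, which is −1.88 on the log2 scale (SE 0.20, adjusted p 5.11e-09). Kif1c, a ubiquitous carrier of vesicles, rose from 300 ± 6.86 to 393 ± 10.2 CPM (log2 change 0.39). The Kif1-binding protein Kif1bp was 66.8 ± 2.57 and 64.0 ± 3.12 CPM and was not called.

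Of the other kinesin-3 motors, Kif13b, a carrier of the scaffold Dlg1, went from 35.2, 38.5 and 36.0 CPM to 76.6, 73.9 and 80.2 CPM (log2 change 1.07, SE 0.06), with an adjusted p of 0.185 against 2-fold. Kif13a and Kif16b, motors of recycling and early endosomes, rose by 0.24 and 0.30 on the log2 scale. The call for Kif13a was lost when counts were scaled by library totals alone, with a log2 change of 0.10 and an adjusted p of 0.0853. That scaling lowered the median of all genes by 0.146 on the log2 scale.

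Kif21a and Kif21b, kinesin-4 proteins that restrain microtubule growth, moved in opposite directions. Kif21a fell from 53.5, 58.8 and 57.9 CPM to 35.4, 32.8 and 34.7 CPM (log2 change −0.73, SE 0.07). Kif21b rose from 30.7, 31.7 and 29.0 CPM to 80.3, 74.3 and 69.5 CPM (log2 change 1.29, SE 0.07) and passed the test against 2-fold (adjusted p 0.000145). Per kilobase of exon, Kif21a stood at 8.76 ± 0.441 and Kif21b at 2.50 ± 0.112 in myoblasts, and at 5.30 ± 0.212 and 6.13 ± 0.447 in myotubes (SD, n = 3), so the order of their levels was turned around.

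Apart from Kifc1, the minus-end-directed kinesins that the symbol rule takes in, Kifc2 and Kifc3, both rose by more than 2-fold. Kifc5b, which lies outside the rule, fell (log2 change −3.05). Kifc3, a motor linked to epithelial junctions and the Golgi, went from 25.9, 26.9 and 25.8 CPM to 65.9, 68.4 and 62.5 CPM (log2 change 1.32, SE 0.07, adjusted p 1.32e-15). Its exons overlap other genes over 27.5% of their bases, so its level is uncertain. Kifc2 was low, at 1.62, 2.28 and 2.26 CPM in myoblasts and 7.71, 9.47 and 5.43 CPM in myotubes (log2 change 1.86, SE 0.23). The groups did not overlap for either motor.

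**Figure D4:**
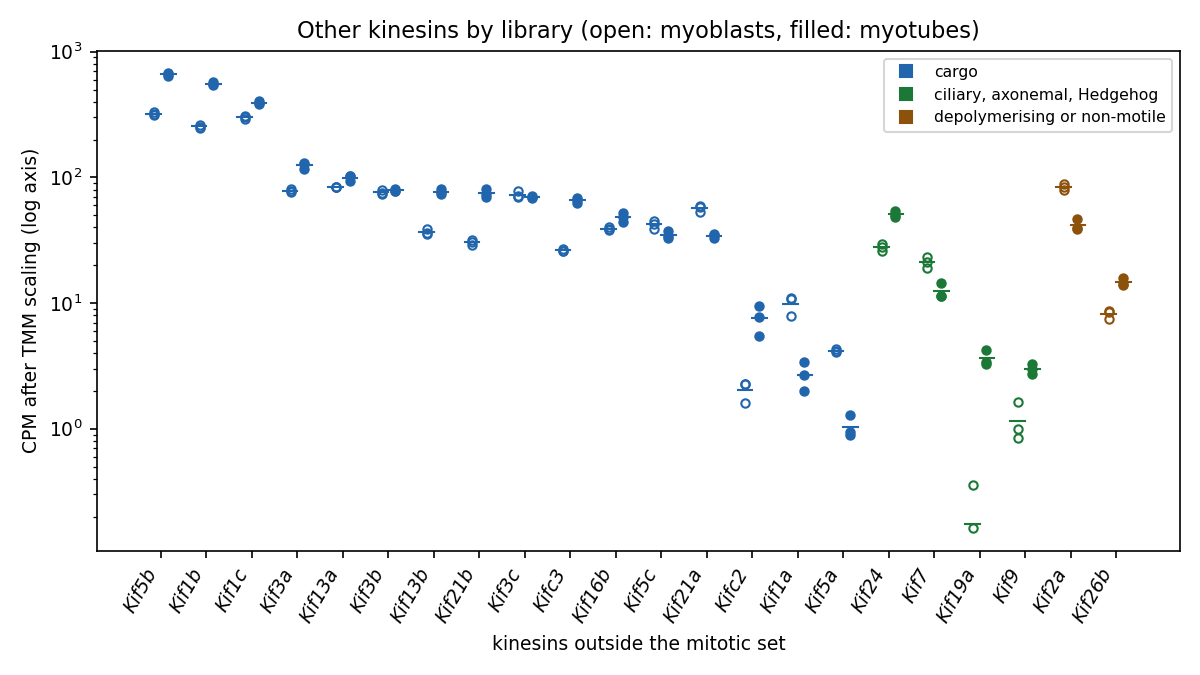
The points are CPM of the tested kinesins outside the mitotic set in each of the 6 libraries, on a log axis (open, myoblasts; filled, myotubes; lines, means), and the myoblast library with 0 counts of Kif19a is not drawn. Of the 22, 14 are higher in myotubes, while Kif5a and Kif1a show the deepest falls.

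Of 7 ciliary, axonemal or Hedgehog-pathway kinesins, 4 were tested, of which 3 were higher and 1 was lower (median log2 change 1.11). Over all genes tested, 40.2% were higher and 39.2% lower, and 4 genes are too few to read a trend of the class. Of the 3 that were higher, Kif19a and Kif9 met the count filter only because of their myotube libraries. Kif24 (chromosome 4, 41389964 to 41464919, minus strand), a centriolar kinesin that holds back cilium formation, rose from 25.9, 29.3 and 28.1 CPM to 48.4, 54.4 and 50.3 CPM (log2 change 0.88, SE 0.07, adjusted p 3.84e-11). Kif7, a regulator of Hedgehog signalling at the cilium tip, fell from 21.1, 18.9 and 23.4 CPM to 11.4, 14.3 and 11.4 CPM (log2 change −0.77, SE 0.12). The groups were apart in both. Of Kif7's exon bases, 20.3% overlap opposite-strand genes. These genes are 9330171B17Rik and Ticrr. Of the 50-base transcript windows of Kif7, 16.3% are shared with other genes, and 16.2% are shared with 9330171B17Rik. Ticrr fell from 34.5 ± 4.92 to 1.78 ± 0.432 CPM. The part of either gene in the fall of Kif7 was not tested.

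Kif19a, which shortens ciliary microtubules, was close to the limit of detection in myoblasts, at 0.359, 0.163 and 0 CPM, and was 3.43, 4.20 and 3.28 CPM in myotubes. These levels rest on 6 and 81 counts, and the log2 change was 4.27 (SE 0.44, adjusted p 2.21e-09). Kif9, an axonemal kinesin, went from 0.988, 1.63 and 0.848 CPM to 2.997, 2.71 and 3.28 CPM (log2 change 1.35, SE 0.29) and was not called beyond 2-fold. Kif27, a relative of Kif7, had 4, 8 and 5 counts in myoblasts and 6, 17 and 11 in myotubes, Kif6 had 2, 6 and 4 and then 1, 3 and 1, and Kif12 had none. None of the 4 markers of ciliated epithelium had enough counts to be tested, and their summed level was 0.732 to 1.08 CPM in myoblasts and 0.126 to 1.43 CPM in myotubes.

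Kinesin-2 drives trains of intraflagellar transport proteins into cilia. A list of 20 genes held parts of these trains and their return motor, and the ciliary protein Arl13b. All were tested, and 5 were higher, 10 lower and 5 not called, none beyond 2-fold, with a median log2 change of −0.24. The shares over all genes were 40.2% higher and 39.2% lower. The largest falls were in Ttc21b (log2 change −0.996, SE 0.08) and Ift74 (−0.75, SE 0.08), both parts of the trains, and the largest rise was in Dync2li1, a light intermediate chain of the ciliary dynein (0.87, SE 0.08).

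Of the 4 depolymerising or non-motile kinesins outside the mitotic set, 2 were tested. Kif2a, which removes subunits from microtubule ends at spindle poles and in axons, fell by 1.004 on the log2 scale (SE 0.07, adjusted p 4.52e-13), from 83.5, 79.8 and 88.1 CPM to 39.7, 46.4 and 39.2 CPM. Its residue of 49.8% of the myoblast level compares with 6.32% for its close relative Kif2c, and Kif2a was not called beyond 2-fold (adjusted p 0.836). Kif26b, a non-motile kinesin of Wnt5a signalling, rose from 8.45, 8.70 and 7.54 CPM to 14.0, 15.7 and 14.3 CPM (log2 change 0.83, SE 0.12). Kif26a had 1, 0 and 0 counts in myoblasts and 6, 11 and 9 in myotubes, a ratio after scaling of 39.7 with an exact 95% counting interval of 6.52 to 1626. Of the exon bases of Kif2a, 19.2% overlap Dimt1 on the opposite strand, which was 10.4 ± 0.251 and 9.78 ± 1.2 CPM. Kif2b, a relative of Kif2c, had 0 counts in all 6 libraries.

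To compare levels between genes, CPM were divided by the length of the annotated exons in kilobases, and the values were summed over the kinesins of each library as a description. The mitotic kinesins made up 51.6 ± 0.309% of the kinesin sum in myoblasts and 5.17 ± 0.128% in myotubes (SD, n = 3), and the cargo kinesins 43.1 ± 0.161% and 88.9 ± 0.35%. The whole kinesin sum went from 424 ± 2.85 to 316 ± 6.26 CPM per kilobase, while the sum of the kinesins outside the mitotic set went from 205 ± 2.69 to 299.9 ± 6.34. The mitotic sum went from 219 ± 0.175 to 16.3 ± 0.104 CPM per kilobase. Each of these shares and sums was apart between the groups in every library.

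Kif5b alone accounted for 9.51 ± 0.151% of the kinesin sum in myoblasts and 26.2 ± 0.102% in myotubes. Within kinesin-1 its share of the 3 Kif5 genes went from 86.1 ± 0.724 to 94.3 ± 0.449%. In myoblasts the highest kinesins per kilobase were Kif20a (53.6 ± 0.58), Kif1c (41.2 ± 0.942) and Kif5b (40.4 ± 0.891), of which Kif1c and Kif5b did not differ beyond their spread. In myotubes the order was Kif5b (82.7 ± 1.62), Kif1c (54.0 ± 1.4), Kif3a (34.7 ± 2.03) and Kif1b (31.7 ± 0.85), and Kif20a was in place 16. Kif3a and Kif1b overlapped between libraries, and their order turned when the longest coding transcript gave the length, as did that of Kif1c and Kif5b in myoblasts.

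**Figure D5:**
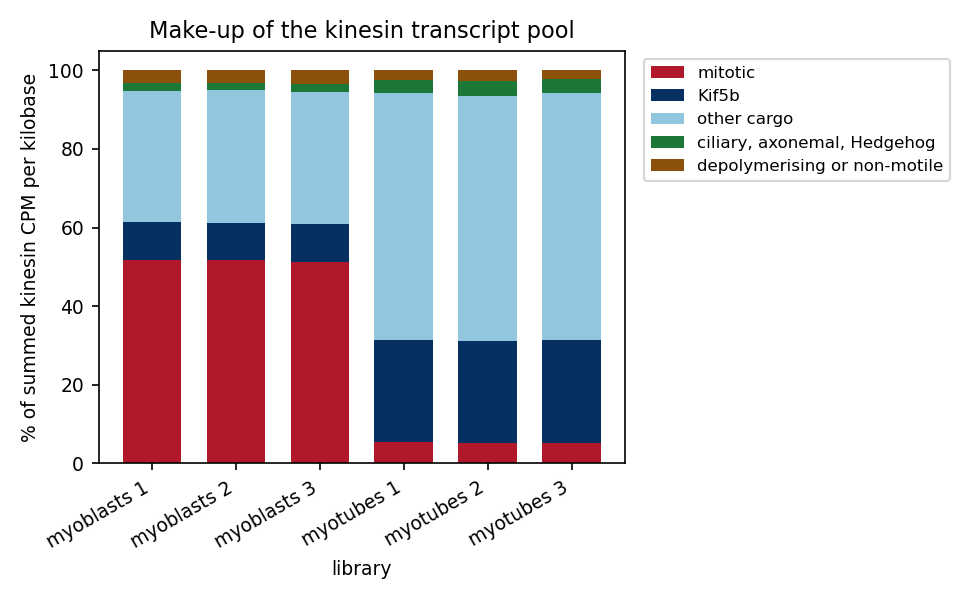
The bars divide the summed kinesin level (CPM per kilobase of exon, in %) of each of the 6 libraries by role, with Kif5b apart from the other cargo kinesins. The mitotic share is near 51.6% in the myoblast libraries and near 5.17% in the myotube libraries, where cargo kinesins make up 88.9%.

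Cytoplasmic dynein 1 is the motor that works against most kinesins on the same tracks. Of 28 genes of dynein, dynactin and their adaptors, 26 were tested, 12 were higher, 6 lower and 8 not called, with 1 beyond 2-fold in each direction and a median log2 change of 0.06, beside 40.2% of all genes higher and 39.2% lower. The heavy chain Dync1h1 fell from 1012 ± 47.2 to 727 ± 22.4 CPM (log2 change −0.48, SE 0.04). The adaptor Bicd2, which links dynein and kinesin-1 to the nuclear envelope, rose from 216 ± 5.46 to 503 ± 29.9 CPM (log2 change 1.22), and the light chain Dynlt3 rose by 0.90 on the log2 scale. Nde1, a dynein regulator known in mitosis and in dividing neural progenitors, fell from 141 ± 5.75 to 48.9 ± 2.37 CPM (log2 change −1.53).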

How the data were processed

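Poly(A) RNA from 3 C2C12 myoblast and 3 myotube libraries had been extracted with TRIzol and prepared with a stranded mRNA kit, per the labels' protocols. The deposited values are the authors' raw read counts for each gene and library. Tools named in the submitters' processing notes are fastp, STAR and featureCounts, with the mm10 genome; for versions and strand handling, the sources used here give nothing, so counts of overlapping genes are uncertain. Replicates of a group were not identical (chi-square per degree of freedom 1.35 to 3.22) and each counted once.

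Genes were kept by filterByExpr (minimum count 10, minimum total 15), and 12800 were tested with the robust quasi-likelihood F test of edgeR 4.0.16 in R 4.3.3 after TMM scaling. Log2 changes are myotubes over myoblasts, and SE was taken as the log2 change, without sign, over the root of the F statistic. A change beyond 2-fold was tested with glmTreat (log2 threshold 1). Adjustment of p-values was by Benjamini-Hochberg over all genes tested (threshold 0.05). CPM are after TMM scaling. Count ratios have exact 95% binomial intervals, which cover counting error only. The fit was tested on simulated data in which 200 genes changed, equally up and down. Far more genes changed here, so the simulation does not test the scaling in that setting. Coordinates and promoter windows are RefSeq's for GRCm38, the assembly mm10 names. Exon lengths, overlaps and shared 50-base windows come from GENCODE M21. Words in promoters were counted on both strands with Python 3.11.15.

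The members and gene lists were chosen with earlier results of these data known. Named are all kinesins, Cenpe, Klc1 to Klc4, Kifap3, Kif1bp, Trak1, Trak2, Map7 and Dync1h1, and, of the called genes in a list whose mean reached 1 CPM, the 2 that changed most in the majority direction and the 1 that changed most the other way. Alternatives were DESeq2 1.42.0 (size factors, Wald test), total counts without TMM, limma-voom (limma 3.58.1), no filter, a filter at 1 CPM in 3 or more libraries, a replicate block, thinning of all libraries to the smallest, leaving out each library, another gene length, and leaving out members that overlap or resemble other genes.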

Additional observations from a re-analysis of the deposited data

How the results depend on the processing

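All 12 mitotic kinesins were lower in myotubes under each alternative fit. The other kinesins gave 13 higher with total counts without TMM and 17 higher with no filter, and 14 to 16 higher when 1 library was left out. Of 476 log2 changes of the 34 tested members under these alternatives, 473 kept their direction and side of the threshold. The exceptions came with total counts without TMM, which lowers the median of all genes: Kif13a lost its call, Kif3c gained one (log2 change −0.21, adjusted p 0.00158), and Kif3b turned to −0.091 (adjusted p 0.117). Without the 7 members that overlap or resemble another gene, an alternative chosen after seeing the data, 9 mitotic kinesins were lower and 4 other kinesins were lower, and 15 kinesins changed by more than 2-fold. With the longest coding transcript as gene length, the mitotic share was 56.8% in myoblasts and 6.11% in myotubes, the share of Kif5b was 9.24 and 27.0%, and its share of the Kif5 genes was 88.6 and 95.4%. With a replicate block the counts were 12 mitotic kinesins lower, 14 others higher and 6 others lower. Deviations of same-numbered libraries from their group means had correlations of −0.0084, 0.0018 and −0.0039. With 3 libraries in a group and a small spread between them, these values cannot show whether same-numbered libraries share a culture or batch. The block changed no call. Depth limits Kif17, Kif26a, Kif27 and Kif6, which had few counts, and makes the size of the change in Kif19a imprecise.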

Other observations

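Partners that act in one complex with a mitotic kinesin did not all keep the same share of their myoblast level, in comparisons chosen after the values were seen. Racgap1, the other subunit of centralspindlin, went from 324 ± 4.53 to 49.0 ± 2.42 CPM (SD, n = 3) and kept 15.1%, while Kif23 kept 5.89%. Ect2, the exchange factor that centralspindlin recruits, kept 7.21%. Prc1, which bundles the central spindle with Kif4, kept 14.5%, against 6.99% for Kif4, and Cit, the midbody kinase that binds Kif14, kept 15.1%, against 8.28% for Kif14. Of the chromosomal passenger complex that Kif20a recruits, Birc5 kept 6.77%, Aurkb 7.26%, Cdca8 9.08% and Incenp 13.2%. The differences between genes were not tested.

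Of the 21 mitotic partners that were lower, 3 were not called beyond 2-fold. Ckap5, a microtubule polymerase, kept 65.9% of its myoblast level, the nuclear mitotic protein Numa1 kept 58.9%, and the plus-end protein Mapre1 kept 72.7% (log2 changes −0.60, −0.76 and −0.46).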
